A study of Mus musculus with 10 samples.

Results

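The centromere-near ends of the mouse autosomes were described from every peak summit of 8 chromatin immunoprecipitation sequencing (ChIP-seq) lists that lay on chromosomes 1 to 19 at position 5000000 or below in the mm10 assembly. These were 12892 of 819400 summits in all, or 1.57%, and they were set against the 28027 summits of the next 5 Mb of the same chromosomes. The sequenced part of the first 5 Mb made up 1.57% of the sequenced autosomes. A summit is the single base at which a peak of immunoprecipitated DNA over input DNA was highest. Its strength was the −log10 of the peak caller's q-value at that base, and every list held only values of 1.303 or more.

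The cells were AB17, an immortalized line of primary hepatocytes from Arid1a fl/fl C57BL/6 mice, and all groups carried the SV40 large T antigen and the H-Ras V12D viruses used to make the line. Wild-type (WT) cells had received the adenovirus Ad-GFP, and knockout (KO, Arid1a-/-) cells had received Ad-Cre, which deletes the floxed part of Arid1a, a DNA-binding subunit of the SWI/SNF chromatin remodelling complex. Trimethylated lysine 9 of histone H3 (H3K9me3) and trimethylated lysine 27 (H3K27me3) were mapped in both genotypes. Arid1a, Brg1 (the ATPase of SWI/SNF), Ctcf and Rad21 (a cohesin subunit) were mapped in WT cells. Each of the 8 lists came from 1 library of 1 line, so differences had no replicate check and no test across libraries was possible. The intervals given below are 95% intervals of counting error, and neighbouring summits of a broad mark are not independent of each other. Peak lists cannot show whether the cells kept a hepatocyte identity or lost Arid1a protein, and their read depth is unknown.

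Mouse autosomes are telocentric, with the centromere almost at one tip. Their centromeres rest on long tandem arrays of minor satellite, flanked by major satellite, which the assembly replaces with a placeholder gap. Major satellite is the classic site of constitutive heterochromatin, where the Suv39h enzymes set H3K9me3 and HP1 proteins bind it, whereas H3K27me3 is set by Polycomb complexes and is best known at silent developmental genes. Ctcf binds a defined DNA motif and stops cohesin, so that both mark the anchors of chromatin loops.

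In the assembly the first sequenced base was 3000001 on 13 of the 19 autosomes, and it lay no farther in than 3100001 on the others. Each chromosome thus offered 1.9 to 2.0 Mb of sequence in the first 5 Mb, 37.5 Mb in all, against 94.7 Mb in the next 5 Mb. Densities were therefore counted per Mb of sequenced reference. The ends were richer in genes than the neighbouring sequence, with 446 protein-coding gene starts or 11.9 per Mb against 658 or 6.95 per Mb, while repeats (soft-masked bases) took 40.7% and 38.4% of the bases.

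The strongest H3K9me3 summits of the ends lay on tandem repeats near the first sequenced bases of chromosomes 9 and 10, and their sequences are shown because most H3K9me3 summits of strength 10 or more at the ends lay there. In each line the capitals mark the 31 bases around the summit whose exact copies were counted in the reference. The first line is chr9:3037886-3038120 (mm10, plus strand) around the strongest KO summit of the chromosome 9 array, whose 31 bases occurred 100 times. The second is chr9:3010859-3011093, around the strongest WT summit of that array, with 90 occurrences. The third is chr10:3112767-3112917, around the strongest KO summit of the first 5 Mb, with 20 occurrences.
Chromosome 9 array, KO summit: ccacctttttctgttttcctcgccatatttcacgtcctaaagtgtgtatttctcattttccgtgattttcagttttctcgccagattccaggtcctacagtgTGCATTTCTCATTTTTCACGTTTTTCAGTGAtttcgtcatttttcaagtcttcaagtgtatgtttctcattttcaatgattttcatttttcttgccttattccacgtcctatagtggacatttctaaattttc
Chromosome 9 array, WT summit: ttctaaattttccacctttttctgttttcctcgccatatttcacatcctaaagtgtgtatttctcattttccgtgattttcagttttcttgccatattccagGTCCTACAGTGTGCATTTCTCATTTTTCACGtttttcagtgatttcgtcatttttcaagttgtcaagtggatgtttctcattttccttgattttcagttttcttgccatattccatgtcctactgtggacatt
Chromosome 10 block, KO summit: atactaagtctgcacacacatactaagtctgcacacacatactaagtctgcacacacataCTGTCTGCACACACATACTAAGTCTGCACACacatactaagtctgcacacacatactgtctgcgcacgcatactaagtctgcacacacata
The chromosome 9 lines cut the same repeated unit at different points. When 1 line was rotated by 11 bases, they were identical at 92.3% of positions. The chromosome 10 line is built of another, short repeat, and its best period was 19 bp, at which 74.3% of bases over chr10:3109145-3117328 matched the base 1 period farther on.

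The chromosome 9 array ran from the first sequenced base, 3000001, to 3038234. It had a period of 234 bp, the unit length known for major satellite, and held 163 units over 38.2 kb. Within it 71.3% of bases matched the base 1 unit farther on, against 24.5% outside it, and 96.3% of it was soft-masked. It was not matched to a satellite sequence here. Its borders were set after the summits had been seen. The annotation places predicted genes such as Gm10722, Gm10721 and Gm10715 and the long gene Gm26870 over it. It contained no match to the CENP-B box (TTCGNNNNANNCGGG), the motif that CENP-B binds in minor satellite, on either strand. In the whole of the first 5 Mb there were 10 such matches, and 17 in the next. The box was in 0.00189% of the 101-base tiles of the first 5 Mb and in 0.0016% of those of the next.

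Both genotypes carried H3K9me3 along the whole array. WT cells had 35 summits there, of strength 9.17 to 26.4 with a median of 17.1, and KO cells had 29, of 4.93 to 58.6 with a median of 15.8. The highest WT values were 26.4 at position 3010976 and 25.9 at 3037994, and the highest KO value was 58.6 at 3038003, 9 bp from the latter. Strengths rise with depth, and so are comparable along a list but not between lists. H3K27me3 had no summit in the array in either genotype. Of 42 places, each a cluster of summits at most 50 bp apart, 24 held a summit of both H3K9me3 lists.

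**Figure D1:**
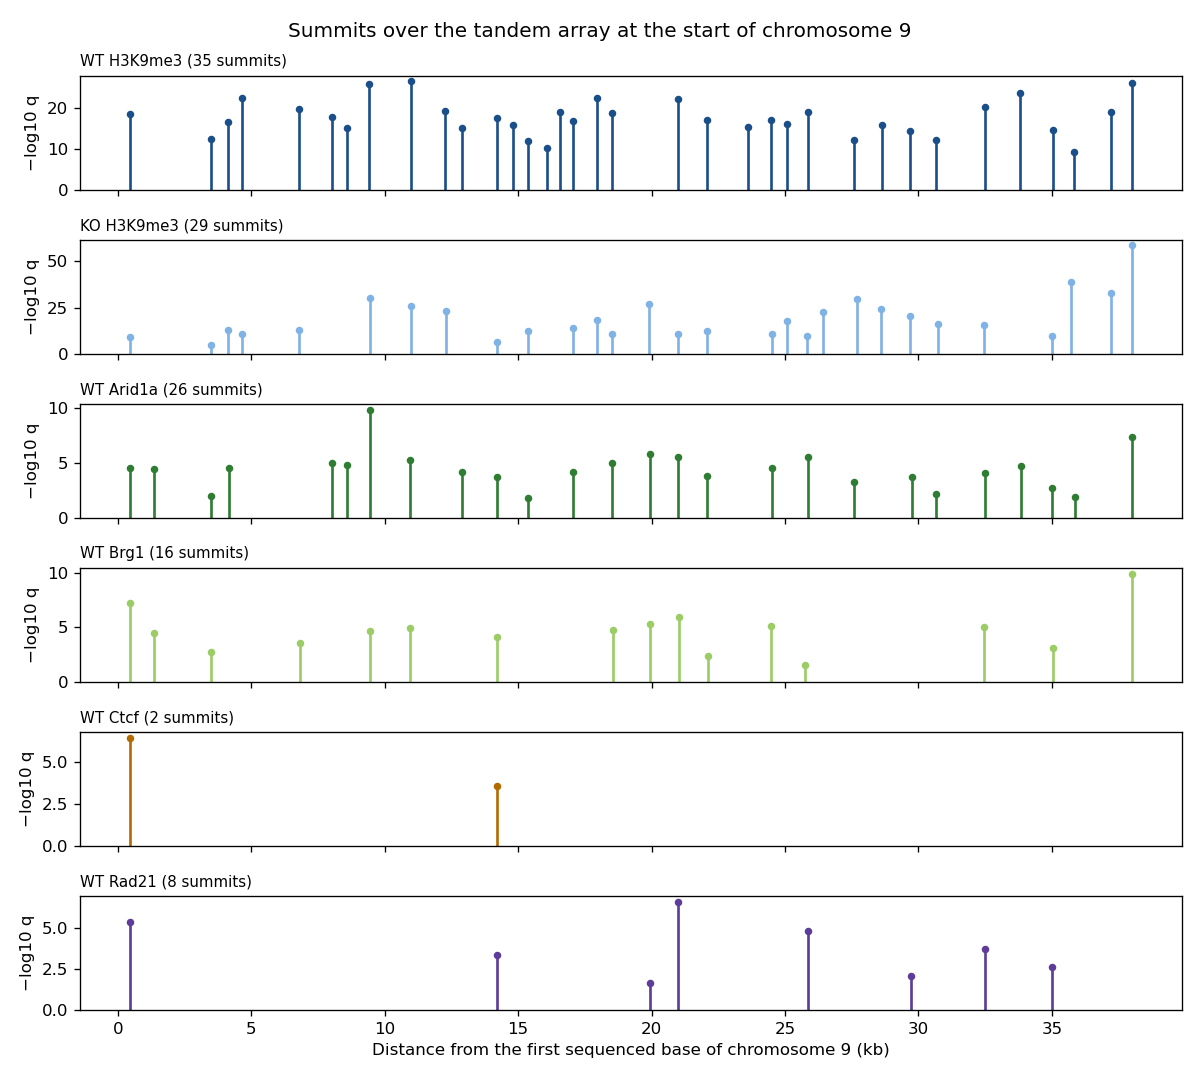
Summits of 6 lists over the tandem array at the start of chromosome 9; each stem is 1 summit, the x axis is the distance from the first sequenced base in kb and the y axis is −log10 q, on a scale of its own in each panel. The H3K9me3 summits of both genotypes run along the whole array, with the highest KO value of 58.6 near its far end, and Arid1a and Brg1 summits stand at many of the same places.

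The SWI/SNF subunits were also called in the array. Arid1a had 26 summits there, from 1.83 to 9.84, and 23 of them lay within 50 bp of a WT H3K9me3 summit. Brg1 had 16, from 1.56 to 9.94, and 13 of them lay within 50 bp of one. The single strongest summits of both factors in the first 5 Mb were these, at 3009434 for Arid1a and at 3037991 for Brg1. Rad21 had 8 summits and Ctcf had 2, and 7 and 2 of them lay within 50 bp of a WT H3K9me3 summit. Arid1a or Brg1 without H3K9me3 was found at 2 of the 42 places, and some of the 42 held neither factor. The overlap that so crowded summits would give by position alone was not computed. Of the 116 summits of all lists in the array, 113 had 31 bases that occurred elsewhere in the reference. The part that the assignment of reads to repeated sequence had in the shared positions was not tested.

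On chromosome 10 no other list had a summit beside those of the mark. The 3 summits nearest the start had strengths of 28.5, 22.3 and 19.9 in WT cells, at 3110130, 3112828 and 3116294. In KO cells they had 55.6, 75.01 and 53.5, at 3110145, 3112842 and 3116328. The nearest Rad21, Arid1a, Ctcf and Brg1 summits to the strongest of them were 11398, 17700, 29028 and 115246 bp away. This block was singled out after its values had been seen.

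A short run of telomere-type repeats near the end of the window also carried H3K9me3. The pair of telomere units TTAGGGTTAGGG, counted on both strands and with overlapping matches, occurred 81 times in the first 5 Mb, and 42 of these matches were packed between chr6:4923778 and chr6:4924184. A WT summit of 8.51 at 4923957, a KO summit of 13.3 at 4923944 and a Rad21 summit of 5.75 at 4923957 stood in this run. No Arid1a, Brg1, Ctcf or H3K27me3 summit lay within 1 kb of it. Such an absence was common. Of all WT H3K9me3 summits in the first 5 Mb, 14.4% had Arid1a, 17.1% Brg1 and 4.77% WT H3K27me3 within 1 kb. The pair was in 0.00566% of the 101-base tiles of the first 5 Mb and in 0.00598% of those of the next.

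KO H3K9me3 summits became denser towards the start of the sequence. In the WT list the first 100 kb was also the densest bin, but 46 of its 162 summits there lay on chromosome 9. In the first 100 kb KO cells had 289 summits or 152 per Mb, and WT cells had 162 or 85.4 per Mb, a KO to WT ratio of 1.78 (exact interval 1.47 to 2.18). The ratio was 1.33 (1.16 to 1.52) between 100 and 400 kb, 1.08 (0.973 to 1.21) between 400 and 1000 kb, and 0.965 (0.889 to 1.05) between 1000 and 2000 kb. KO summits outnumbered WT summits in the first 100 kb of 16 of the 19 chromosomes, WT outnumbered KO on chromosome 13 alone, with 3 against 1, and the counts were equal on chromosomes 1 and 12. Chromosome 11 had 12 WT and 32 KO summits there, chromosome 4 had 11 and 22, and chromosome 17 had 2 and 13. Chromosome 9 had 46 and 50 there. Of these the array held 35 WT and 29 KO summits, so within it the WT summits were the more numerous.

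The excess of KO summits in the first 100 kb was present outside repeats. Among summits off soft-masked bases there were 47 in WT and 104 in KO cells, a ratio of 2.21 (1.55 to 3.19), and among summits whose 31 bases occurred once in the reference there were 39 and 104, a ratio of 2.67 (1.83 to 3.96). Without chromosome 9 the ratio was 2.06 (1.64 to 2.6). It was smaller among strong summits, with 50 and 64 of strength 5 or more and a ratio of 1.28 (0.87 to 1.89), an interval that includes 1. The excess near the start thus consisted mostly of weak summits. The first 100 kb was chosen for this count after its values had been seen.

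**Figure D2:**
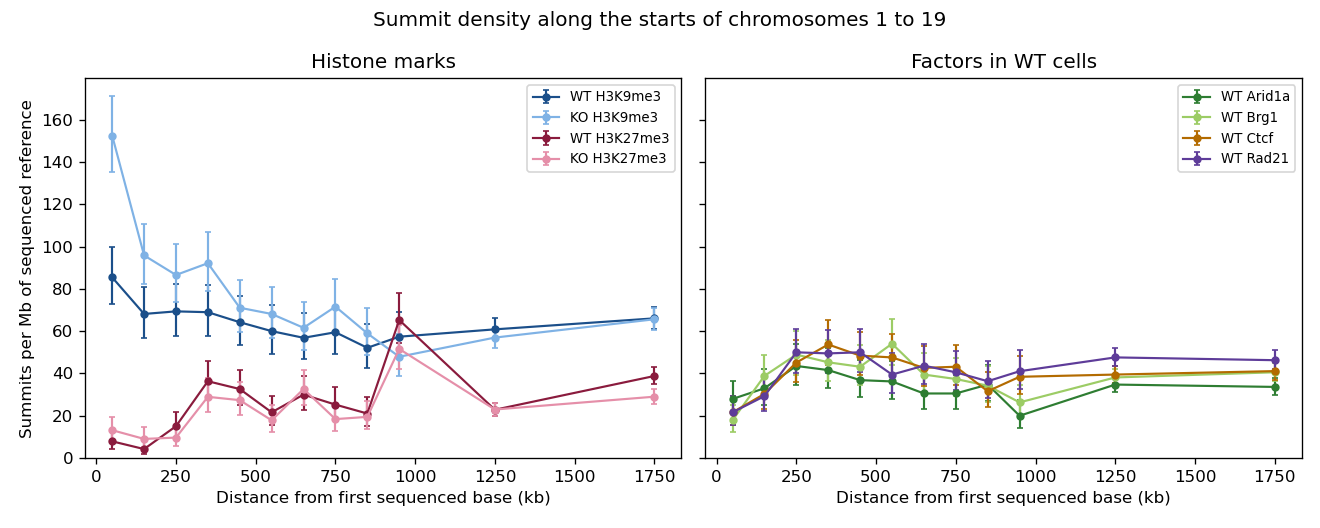
Summits per Mb of sequenced reference against the distance from the first sequenced base in kb, summed over the 19 autosomes; points stand at the middle of each bin, bins are 100 kb wide up to 1000 kb and then 500 kb, and bars are 95% Poisson intervals. H3K9me3 starts at 152 per Mb in KO cells and at 85.4 per Mb in WT cells, where 46 of 162 WT summits lie on chromosome 9. H3K27me3, Brg1, Ctcf and Rad21 are sparse in the first 100 kb. Arid1a stands at 27.9 per Mb there, with 26 of its 53 summits in the chromosome 9 array.

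H3K27me3, Ctcf, Rad21 and Brg1 were sparser in the first 100 kb, pooled over the chromosomes, than over the first 5 Mb as a whole. The chromosome 9 array, where H3K9me3 was densest, went the other way for 3 of them. Brg1 stood at 418.5, Rad21 at 209.2 and Ctcf, with 2 summits, at 52.3 per Mb there. In the first 100 kb H3K27me3 had 15 summits in WT and 25 in KO cells, or 7.91 and 13.2 per Mb, against 28.3 and 24.4 per Mb in the first 5 Mb as a whole. The 11 KO and 6 WT summits of chromosome 14 were the largest share of these, beside 6 and 6 on chromosome 2. Ctcf had 21.6 summits per Mb in the first 100 kb and 53.7 per Mb between 300 and 400 kb. Rad21 had 21.6 and 49.5 per Mb in these bins, and Brg1 had 17.9 and 45.3. For Brg1, 16 of its 34 summits in the first 100 kb were those of the chromosome 9 array, and for Arid1a 26 of 53. With the array counted, Arid1a stood at 27.9 per Mb (20.9 to 36.6) in the first 100 kb, against 33.8 over the first 5 Mb. Its summits of 5 or more stood at 4.22 per Mb there, and 7 of these 8 lay in the array. These values thus do not show that Arid1a kept its density outside the array.

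Over the whole first 5 Mb, H3K9me3 was only slightly denser than in the next 5 Mb. WT cells had 2391 summits or 63.8 per Mb against 5541 or 58.5 per Mb, a ratio of 1.09 (1.04 to 1.14), and 10 of 19 chromosomes were denser in the first window. KO cells had 2660 summits or 70.96 per Mb against 6154 or 65.01 per Mb, a ratio of 1.09 (1.04 to 1.14), with 11 of 19 chromosomes denser. The chromosomes differed widely. Chromosome 16 had the highest ratio in both genotypes, 2.55 in WT and 2.33 in KO cells, and chromosome 17 the lowest, 0.338 and 0.595. Elsewhere on the autosomes the density was 59.1 per Mb in WT and 54.2 per Mb in KO cells.

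The typical H3K9me3 summit was no stronger at the ends. The median strength was 2.64 in WT and 2.47 in KO cells in the first 5 Mb, in the next and over the rest of the autosomes alike. The quartiles were identical as well, so values repeat and a small shift could go unseen. The difference was among the stronger summits. Those of 5 or more were 7.2% of WT summits in the first 5 Mb, 5.7% in the next and 4.0% over the rest. In KO cells they were 8.3%, 6.1% and 4.6%. Of strength 10 or more there were 43 WT summits in the first 5 Mb against 15 in the next, or 1.15 against 0.159 per Mb, and 51 KO summits against 15, or 1.36 against 0.159 per Mb. In each genotype 38 of these lay in the first 100 kb. The chromosome 9 array held 34 of the 43 WT and 24 of the 51 KO summits. Without it there were 9 WT summits against 15, a density ratio of 1.52 (0.585 to 3.7), and 27 KO summits against 15, a ratio of 4.55 (2.34 to 9.2). Exact copies of the surrounding 31 bases occurred for 95.3% of the 43 WT and 76.5% of the 51 KO summits, compared with 38.3% and 49.7% of all H3K9me3 summits in the first 5 Mb.

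The strong summits of the WT and KO lists, whose strengths are not on a common scale, lay on partly different chromosomes. The KO summits of strength 10 or more were spread over chromosomes 3, 6, 9, 10, 11, 12, 13, 14, 16 and 18, with 8 on chromosome 18, 4 on chromosome 11, 4 on chromosome 14 and 3 on chromosome 16. The WT summits outside chromosome 9 were 3 on chromosome 10, 2 on chromosome 8 and 1 each on chromosomes 4, 11, 14 and 18, and chromosomes 4 and 8 had no KO summit of that class. The strongest KO summit without a WT summit within 1 kb had a strength of 46.6 and stood at position 3005842 of chromosome 18, where the nearest WT H3K9me3 summit was 2891 bp away with 5.87. A Ctcf summit of 59.7 lay 12 bp from it and a Rad21 summit of 30.6 lay 27 bp from it, both mapped in WT cells. A KO H3K27me3 summit of 8.60 lay 893 bp from it, and the nearest WT H3K27me3 summit was 443947 bp away. The next KO H3K9me3 summit of this kind was one of 27.01 in the array at 3019920, with a WT summit of 22.1 at 1082 bp. The third was one of 23.8 at chr13:3373158, between genes and not in a repeat, where the nearest WT summit was 7683 bp away with 2.64. The strongest WT summits without a KO summit within 1 kb were both in the array, 23.6 at 3033823 and 17.8 at 3008022, with KO summits at 1197 and 1226 bp, and were followed by one of 9.78 in an intron of Gria4, a glutamate receptor gene, on chromosome 9.

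H3K9me3 differed between the genotypes by chromosome and by the kind of sequence. KO cells had 1.11 times (1.05 to 1.18) the WT number of summits in the first 5 Mb and 1.11 times (1.07 to 1.15) in the next, but 0.917 times over the rest of the autosomes. With summits within 3 kb merged, the ratio in the first 5 Mb was 1.008, so that the excess was gone. KO counts were higher on 14 of 19 chromosomes in the first 5 Mb. They were lower on chromosome 19, with 259 WT and 128 KO summits, and on chromosome 11, with 252 and 152, and higher on chromosome 3, with 109 and 183, and chromosome 14, with 90 and 160. The directions were the same in the next 5 Mb. Chromosome 19 had 504 WT and 330 KO summits there, chromosome 11 had 544 and 376, chromosome 3 had 350 and 407 and chromosome 14 had 162 and 245. On soft-masked bases there were 1172 WT and 1599 KO summits, a ratio of 1.36 (1.26 to 1.47), and off them 1219 and 1061, a ratio of 0.87 (0.801 to 0.946). The next 5 Mb had the same split, with ratios of 1.325 and 0.885. The direction of the total thus depended on whether repeats were counted, in the ends and beside them. In the first 100 kb, given above, KO summits were more numerous on both kinds of base.

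At gene starts H3K9me3 was rarer in KO cells. Of the 446 protein-coding gene starts in the first 5 Mb, 163 (36.55%) had a WT summit within 2 kb and 71 (15.9%) a KO summit, 30 of them both, 133 WT alone and 41 KO alone. The shares were 39.7% and 15.05% of the 658 starts in the next 5 Mb and 40.6% and 14.4% over the rest. Across the 19 chromosomes the density of WT summits in the first 5 Mb ranked with the density of gene starts at a Spearman rho of 0.56, and that of KO summits at 0.16. The chromosomes share their libraries, and these values are descriptions.

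Most weak summits had no counterpart in the other genotype. In the first 5 Mb, 1462 of 2391 WT H3K9me3 summits and 1715 of 2660 KO summits had none within 1 kb, while over all autosomes 69.1% of WT and 66.6% of KO summits had none. The share with a counterpart was 38.9% of WT summits in the first 5 Mb, 39.2% in the next and 30.4% over the rest. It rose with strength, from 29.8% of WT summits under 2.5 to 77.7% of those of 5 to 10, and from 24.6% to 75.15% of KO summits. It was 95.3% and 82.4% of those of 10 or more. However, 34 of these 43 WT and 24 of these 51 KO summits lay in the crowded chromosome 9 array. A counterpart within 1 kb was likely there by position alone, so the values of this class do not show a further rise.

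**Figure D3:**
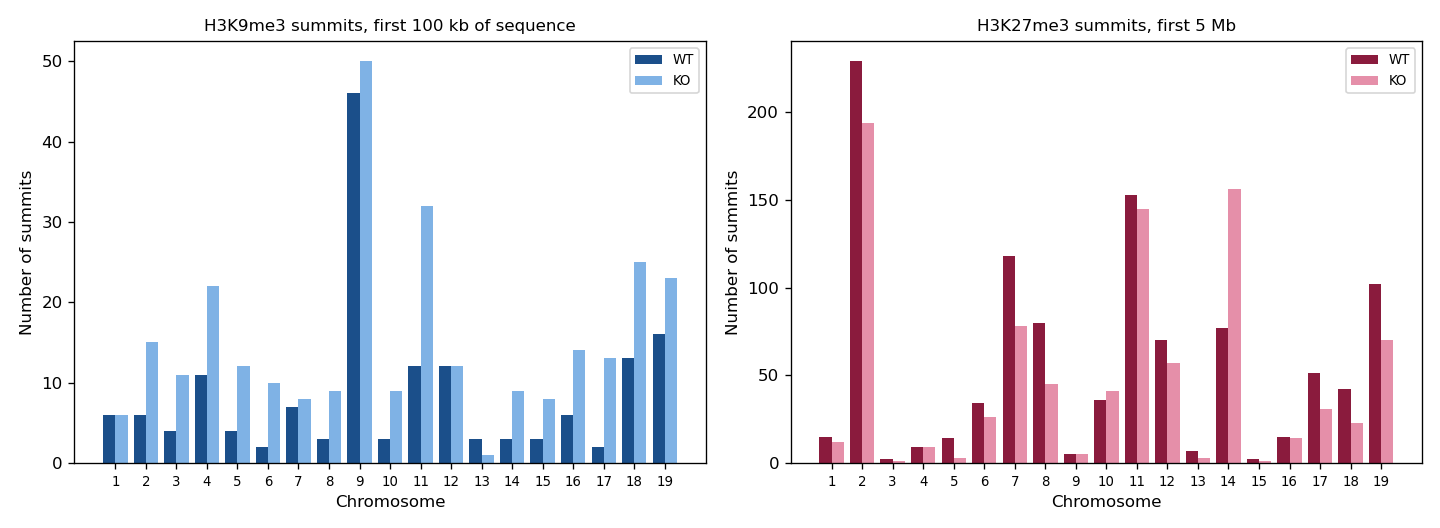
Number of summits by chromosome in WT and KO cells, 1 library each. In the first 100 kb of sequence (left) H3K9me3 is more frequent in KO cells on 16 of 19 chromosomes, and in the first 5 Mb (right) H3K27me3 is less frequent in KO cells except on chromosomes 4, 9, 10 and 14.

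H3K27me3 at the ends was spread unevenly over the chromosomes. WT cells had 1061 summits or 28.3 per Mb, against 24.3 per Mb in the next 5 Mb and 46.6 per Mb over the rest. The ratio of 1.17 (1.08 to 1.254) rested on chromosome 2, which held 229 of the WT summits, and was 0.926 without it. KO cells had 914 summits or 24.4 per Mb against 18.5 per Mb, a ratio of 1.31 (1.21 to 1.43), or 1.05 without chromosome 2. Only 11 WT and 10 KO chromosomes of 19 were denser in the first window. Chromosome 3 had 2 WT summits and 1 KO summit in its first 5 Mb. Chromosome 15 had the same.

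The longest strings of H3K27me3 summits, with gaps of at most 5 kb, lay on chromosomes 2, 10, 11 and 12. In WT cells 35 summits stretched over 61.8 kb upstream of Bend7, a BEN-domain gene, at chr2:4654958-4716725, and their highest value was 24.4. Further strings of 29, 26 and 21 WT summits lay on the same chromosome, the last over Bend7 itself. On chromosome 12 a string of 19 WT summits covered Pomc, the precursor of corticotropin and melanocyte-stimulating hormones. In KO cells the longest string, 32 summits over 65.4 kb, covered the lipid-binding genes Sec14l4 and Sec14l3 at chr11:4021983-4087344. The next were on chromosome 2, with 26 KO summits at chr2:4666239-4711777, inside the WT string upstream of Bend7, and 21 at chr2:3336223-3371725, over Acbd7 and Olah. A string of 20 KO summits lay over Osbp2, an oxysterol-binding protein gene on chromosome 11, and another of 20 over Iyd, the enzyme that recycles iodide in the thyroid, on chromosome 10. There were 332 such strings in WT and 319 in KO cells, counting single summits, and the longest WT string held 3.3% of the WT summits in the first 5 Mb. Cut-offs for these strings were chosen after the data had been seen.

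The strongest WT summits of H3K27me3 stood at gene starts. The highest was 38.3 at chr11:4746552, 226 bp downstream of the start of Cabp7, a neuronal calcium-binding protein. KO cells had 29.0 at a summit 623 bp away. The next was 37.1 at chr11:4947844, 220 bp downstream of the start of Nefh, the heavy neurofilament subunit, with a KO summit of 17.1 at 1224 bp. The third was 24.4 at chr2:4716725, 1106 bp upstream of Bend7, with a KO summit of 11.8 at 689 bp. Nefh also appears among the strongest summits without a counterpart within 1 kb in both directions, since its WT and KO summits stand 1224 bp apart. The others of that class were WT summits of 15.0 in Sec14l2 and 14 in Shisa7, with KO summits of 6.3 and 10.2 at 2006 and 3672 bp. They also included KO summits of 19.1 in Osbp2, with a WT summit of 4.08 at 7634 bp, and of 12.9 on chromosome 14.

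KO cells had fewer H3K27me3 summits in the ends, with chromosome 14 as the largest exception. The KO to WT ratio was 0.861 (0.788 to 0.942) in the first 5 Mb, 0.764 in the next and 0.787 over the rest, and KO counts were higher on 2 of 19 chromosomes. Chromosome 14 had 77 WT and 156 KO summits, and chromosome 10 had 36 and 41. The excess on chromosome 14 was not limited to the end. In the next 5 Mb it had 149 WT and 238 KO summits and was the only chromosome with more in KO cells. Among summits of strength 5 or more there were 128 in WT and 141 in KO cells, a ratio of 1.10. No interval was computed for it, and the strengths of the lists are not on a common scale, so a turn in direction is not shown. Of the WT summits, 481 of 1061 had no KO summit within 1 kb, and 334 of 914 KO summits had no WT summit. The shares over all autosomes were 45.4% and 31.7%. Of the 446 gene starts, 65 had a summit in both genotypes, 24 (5.38%) in WT alone and 12 (2.69%) in KO alone. These shares were 4.86% and 4.86% in the next 5 Mb and 6.33% and 2.62% over the rest.

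The chromosome 14 excess lay on duplicated sequence. The 3 strongest KO summits of H3K27me3 in the first 5 Mb were there. The highest, 44.3 at chr14:4335313, stood 550 bp downstream of the start of the predicted gene 2610042L04Rik, with a WT summit of 13.7 at 23 bp. The others were 33.5 and 30.2 at 4111062 and 4109891, beside the start of Gm8108, with WT summits of 18.1 and 21.6 at 17 and 19 bp. Their 31 bases occurred 12, 8 and 5 times in the reference. On chromosome 14, 151 of the 156 KO and 75 of the 77 WT H3K27me3 summits had further exact copies, or 96.8% and 97.4%, against 12.5% and 12.8% on the other chromosomes. All 8 lists had copies for 94.7% or more of their chromosome 14 summits. Genes there that share reads with near-identical copies are uncertain, and how far this touched the difference between the genotypes was not tested. Of H3K27me3 summits without another exact copy there were 860 in WT and 668 in KO cells over all ends, a ratio of 0.777 (0.701 to 0.86).

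Ctcf and Rad21 gave the largest density ratios besides KO H3K27me3, whose ratio rested on chromosome 2. Ctcf had 1509 summits or 40.3 per Mb against 2718 or 28.7 per Mb, a ratio of 1.4 (1.32 to 1.49), and 12 of 19 chromosomes were denser in the first window. Rad21 had 1631 or 43.5 per Mb against 34.6 per Mb, a ratio of 1.26 (1.18 to 1.33), with 13 of 19 chromosomes denser. The next 5 Mb was poorer in both than the rest of the autosomes, which had 37.6 and 42.0 per Mb. Gene starts were 1.71 times denser in the first window, and the number of summits per gene start was lower there than in the next, at 3.38 against 4.13 for Ctcf and 3.66 against 4.98 for Rad21. By chromosome, Ctcf density in the first 5 Mb ranked with gene density at a Spearman rho of 0.68 and Rad21 density at 0.64. Chromosome 19 was the densest, with 132 and 144.5 per Mb, and chromosome 3 the sparsest, with 5.5 and 6.0.

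**Figure D4:**
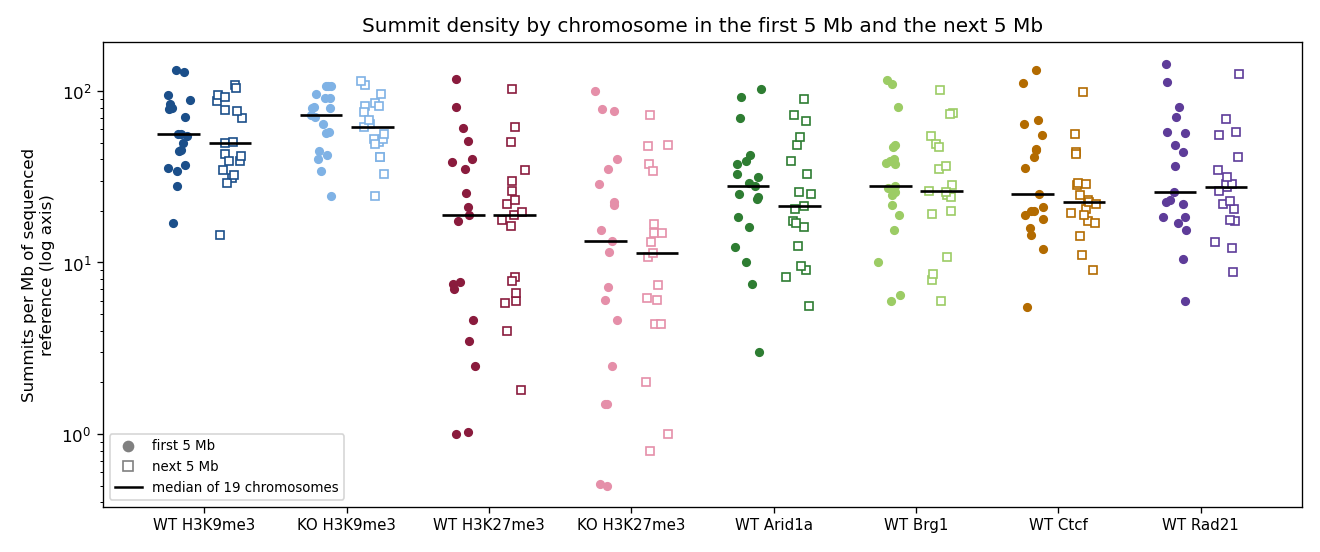
Summits per Mb of sequenced reference on each of the 19 autosomes, on a log axis, in the first 5 Mb (filled circles) and the next 5 Mb (open squares) for the 8 lists, with the median of the 19 chromosomes as a black line. The chromosomes span more than the windows differ, most widely for H3K27me3, whose WT density runs from 1.0 to 117.4 per Mb in the first 5 Mb.

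Ctcf summits at the ends had the same median strength as farther in, and the core motif was found at a similar share. The median was 4.02 in both windows, and 27.4% in the first and 26.97% in the next were of 10 or more. Letters of the Ctcf core motif, CCANNAGNNGGC on either strand, lay within 50 bp of 15.0% of Ctcf summits in the first 5 Mb and of 30.99% of those of 10 or more, against 1.39% and 1.21% at points 2 kb away. In the next 5 Mb the shares were 13.5% and 30.15%, against 0.773% and 0.955% at points 2 kb away. Of all 101-base tiles in the first 5 Mb, 0.532% held the motif. Rad21 summits had a Ctcf summit within 1 kb in 54.3% of cases, compared with 49.97% in the next 5 Mb, and 57.5% of Ctcf summits had a Rad21 summit, compared with 58.1% in the next 5 Mb. The windows around the strong Ctcf summits at Mterf1a and in Lif are shown, 121 bases of the plus strand in mm10, with core matches in capitals.
Ctcf at Mterf1a, chr5:3893998-3894118: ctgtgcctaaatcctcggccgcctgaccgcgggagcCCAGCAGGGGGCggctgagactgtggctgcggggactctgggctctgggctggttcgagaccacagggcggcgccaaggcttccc
Ctcf in Lif, chr11:4258882-4259002: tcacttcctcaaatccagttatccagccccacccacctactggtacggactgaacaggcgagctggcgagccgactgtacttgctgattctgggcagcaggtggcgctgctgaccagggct
The Mterf1a window had a core match of CCAGCAGGGGGC, and the Lif window had no match to these letters.

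Among the strongest Ctcf summits of the ends was one of 151 at chr17:3083784, in the pseudogene Pisd-ps2. It had a Rad21 summit of 11.4 at 1471 bp, a Brg1 summit of 8.35 at 108 bp and an Arid1a summit of 4.99 at 41 bp. It lay on a soft-masked base, and the 121 bases around it held no core match. Another Ctcf summit was 148 at chr5:3894058, 125 bp upstream of Mterf1a, a mitochondrial transcription terminator, with a Rad21 summit of 70.6 at 16 bp. Strong Rad21 summits were 94.6 in Lif, with Ctcf at 120.2 and 22 bp away, and 75.8 in Smtn, a smooth muscle cytoskeletal gene, with Ctcf at 96.9 and 19 bp away. No H3K27me3 summit lay within 5 kb of any of these 4 sites. The share of all Ctcf or Rad21 summits without one was not counted, so this describes the 4 sites only.

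Arid1a and Brg1 were nearly as dense in both windows. Arid1a had 1268 summits or 33.8 per Mb against 31.1 per Mb, a ratio of 1.09 (1.02 to 1.16), and Brg1 had 1458 or 38.9 per Mb against 35.3 per Mb, a ratio of 1.1 (1.04 to 1.17). Each was denser in the first window on 11 of 19 chromosomes. No summit of 10 or more was listed in the first 5 Mb for either, which allows a share of up to 0.302% for Arid1a and 0.263% for Brg1 (Wilson). The next 5 Mb had 5 and 6, or 0.17% and 0.18%, so a difference in this class was not detectable. Of Arid1a summits 35.2% had a Brg1 summit within 1 kb, compared with 30.5% in the next 5 Mb.

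Outside the chromosome 9 array the few SWI/SNF summits named here as the strongest stood at gene starts, except that near Rps9. The share of all strong summits at gene starts was not counted. The named Arid1a summits were 9.68 at the start of Zfp628, a zinc-finger gene on chromosome 7, and 9.09 at the start of Rps20. Rps20 is a ribosomal protein gene on chromosome 4, and a Ctcf summit of 24.7 lay 1380 bp from its Arid1a summit. Those of Brg1 were 9.27 at 4054 bp downstream of the start of Rps9, another ribosomal protein gene, and 9.12 at the start of Rbm4b, an RNA-binding protein gene on chromosome 19, with a Ctcf summit of 74.0 at 716 bp. In the first 5 Mb 32.3% of Arid1a and 34.5% of Brg1 summits lay within 2 kb of a transcript start, against 23.3% and 23.7% in the next. Such stretches made up 15.2% of the sequenced bases in the first 5 Mb and 9.16% in the next. Of the 446 protein-coding gene starts 41.0% had Arid1a, 45.7% Brg1, 48.4% Ctcf and 56.1% Rad21 within 2 kb, and in the next 5 Mb the shares were 41.3%, 45.6%, 47.1% and 55.9%.

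Genes of 4 lists were read at the ends, 39 names in all, of which 29 had their start in the first 5 Mb and 10 were left out. The 6 genes of liver metabolism and hormone response had no H3K27me3 summit in either genotype, in the body or within 2 kb of it. They were Insr (the insulin receptor), Ghr (the growth hormone receptor), Cpt1a (the enzyme that admits long-chain fatty acids to mitochondria), Selenop (the selenium carrier of plasma), Hmox2 (haem oxygenase) and Lrp5 (a Wnt co-receptor). Of all 446 genes 27.6% had a WT and 25.8% a KO H3K27me3 summit in this span, and the count of 0 among 6 is a description only. All 6 had Brg1, Ctcf and Rad21 summits and 5 had Arid1a, where 64.8%, 70.0%, 73.1% and 64.1% of all 446 genes did. Of the 14 developmental regulators, ligands and receptors, 7 had a WT and 6 a KO H3K27me3 summit at the start, against 19.96% and 17.3% of all 446 starts.

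**Figure D5:**
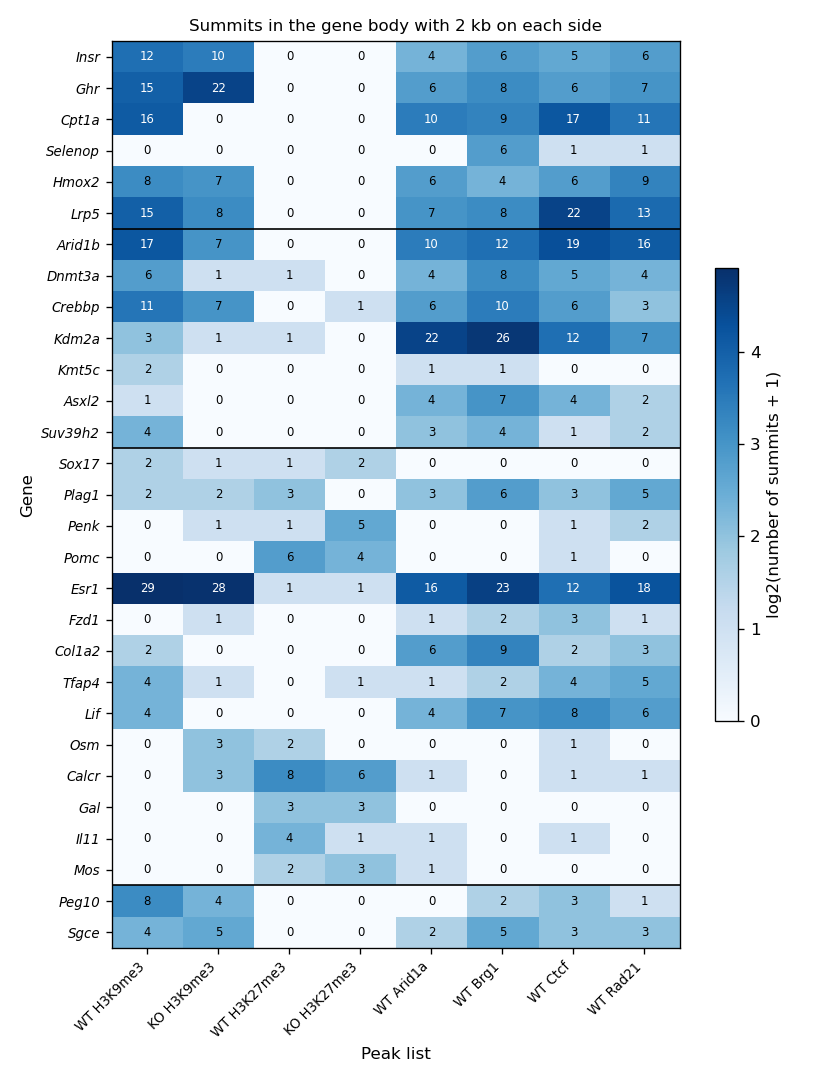
Number of summits of each list in the body of 29 genes with 2 kb on each side; colour is log2(number + 1), and lines separate genes of liver metabolism and hormone response, chromatin regulators, developmental regulators, ligands and receptors, and imprinted genes. H3K27me3 summits stand almost only in the developmental group, and Cpt1a has 16 H3K9me3 summits in WT cells and 0 in KO cells.

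Single genes with H3K27me3 kept it in both genotypes more often than not. Sox17, a regulator of endoderm, had a highest value of 16.0 in WT and 13.6 in KO cells at chr1:4490931-4497354. Penk, the enkephalin precursor, had 9.25 and 6.91, Calcr, the calcitonin receptor, had 6.98 and 7.29, and Gal, the precursor of galanin, had 7.63 and 7.07. Pomc had 6 WT and 4 KO summits, Mos, an oocyte kinase, had 2 and 3, and Il11, a cytokine, had 4 and 1. Plag1, a zinc-finger regulator of growth, had 3 WT summits up to 5.47 and no KO summit, and Osm, a cytokine, had 2 and 0. Tfap4 went the other way, with no WT summit and 1 KO summit of 3.07. Among the chromatin regulators Dnmt3a and Kdm2a had 1 WT summit each and no KO summit. Crebbp had no WT summit and 1 KO summit of 2.75. Penk and Gal had no Arid1a or Brg1 summit.

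Several gene bodies had more H3K9me3 summits in WT than in KO cells. This direction was common at the ends. Of all 446 genes, 299 had a WT and 220 a KO H3K9me3 summit in the body or within 2 kb of it. The counts of the genes named here are therefore descriptions, and whether they differ from those of other genes was not tested. Cpt1a (chr19:3322334-3385733) had 16 WT summits, none over 3.66, and no KO summit. Arid1b, the paralog of Arid1a in SWI/SNF (chr17:4994332-5347656), had 17 and 7, Lrp5 had 15 and 8, and Dnmt3a, a DNA methyltransferase, had 6 and 1. Suv39h2, an enzyme of pericentric H3K9me3, had 4 and 0, and Kmt5c, which sets H4K20me3 in heterochromatin, had 2 and 0. Cpt1a and Lrp5 lie on chromosome 19, where the first 5 Mb had 259 WT and 128 KO summits. Ghr had 15 and 22, and Esr1, the oestrogen receptor, had 29 and 28. Osm and Calcr had 0 WT and 3 KO summits each, and Penk and Fzd1 had 0 and 1 each. Among the chromatin regulators Kdm2a, a CpG-island demethylase, had the most SWI/SNF summits, 22 of Arid1a and 26 of Brg1. The imprinted neighbours Peg10 and Sgce, whose promoter regions adjoin, shared a Ctcf summit of 22.0 at chr6:4747141.

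Places crowded with many lists were few. Of bins of 1 kb, 6 in the first 5 Mb held summits of 6 or more of the 8 lists, and 4 in the next. They were 2 bins of the chromosome 9 array, 3 bins of chromosome 19, at 54401, 141 and 9866 bp from the starts of Mrpl21, Rce1 and Rbm14, and chr6:3201001-3202000. The last held 7 lists, with H3K27me3 at 19.4 in WT and 15.5 in KO cells, H3K9me3 at 8.83 and 9.52 and Ctcf at 9.13, and lacked Rad21. Bins so few are listed as places, without a comparison.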

How the data were processed

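Before deposit, the authors mapped the reads (Bowtie2, mm10) and filtered them by quality (SAMtools) and for PCR duplicates (Picard). Peaks were then called against the input library that matched (MACS2, default settings). Tool versions and the handling of reads that map to several places are not given in the sources used here. Each deposited list gives 1-base summits and the −log10 q-value beside them. Of 10 samples, the 2 inputs were not analysed here. Broad marks called as narrow peaks appear as strings of summits.

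Summits were counted with Python 3.11.15, NumPy 2.4.6 and SciPy 1.17.1, per Mb of sequenced mm10 reference. Ratios have exact conditional and shares Wilson intervals at 95%, which cover counting error only. Counterparts lay within 1 kb, gene starts (GENCODE M21) within 2 kb. Exact copies of 31 bases were counted on both strands. The ratio calculation was tested on simulated data. The members, lists and named items (listed genes, the 3 strongest summits of each list and the 3 strongest of each mark without a counterpart) were chosen with earlier results of these data known. One of the strongest Ctcf and Rad21 sites is not reported here. Alternatives changed the base of density, strength cut-off, distance, repeats and chromosomes.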

Additional observations from a re-analysis of the deposited data

How the results depend on the processing

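Of 113 alternative values over 23 results, 62 stayed within the counting interval of the value reported. Each list is 1 library, so none could be left out, and no paired analysis was possible because no result comes from a test over replicates. Depth is unknown and limits weak summits most. The alternatives for the first 100 kb and those without the chromosome 9 array were chosen after seeing the data. Values below are given in the order WT H3K9me3, KO H3K9me3, WT H3K27me3, KO H3K27me3, Arid1a, Brg1, Ctcf and Rad21 where not named, and causes were not tested unless stated.

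Per nominal window, with the placeholder gap counted as sequence, every density ratio of first to next 5 Mb turned, to 0.431, 0.432, 0.462, 0.521, 0.431, 0.436, 0.555 and 0.498. This follows from the gap, which fills most of the first 5 Mb. Among summits of 5 or more the density ratio reached 1.39 and 1.49 for H3K9me3 in WT and KO cells, 1.45 for KO H3K27me3 and 1.37 for Arid1a. Without soft-masked bases it was 1.19 and 1.17 for WT and KO H3K9me3. For KO H3K9me3 it was 1.025 without the first 100 kb and 1.024 with summits merged within 3 kb. Without chromosome 2, the fullest, it turned to 0.926 for WT H3K27me3 and was 1.05 for KO H3K27me3. Without chromosomes 14 and 18 it was 1.17 for Arid1a and 1.2 for Brg1.

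The share of summits of 5 or more, first over next 5 Mb, was 1.27 for WT and 1.36 for KO H3K9me3. For the WT list it turned to 0.971 without the first 100 kb, and it was 1.026 without soft-masked bases and 1.03 without the chromosome 9 array. For the KO list it was 1.08 without the first 100 kb. With a cut-off of 10 it was 6.64, 7.87, 0.824, 0.857, 0 and 0 for the first 6 lists.

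The KO to WT ratio of H3K9me3 summits in the first 5 Mb was 1.27 among summits of 5 or more, 1.008 after merging, and turned to 0.87 without soft-masked bases. That of H3K27me3 turned to 1.1 among summits of 5 or more, for which no interval was computed, and was 0.945 after merging. In the first 100 kb the H3K9me3 ratio was 2.21 without soft-masked bases, 2.67 without exact copies and 1.28 among summits of 5 or more. The share of summits with a counterpart in the other genotype was 25.8%, 23.05%, 37.1% and 44.1% within 500 bp for the 4 mark lists, and 63.4%, 64.8%, 83.7% and 85.9% within 5 kb. Among summits of 5 or more it was 82.1%, 76.8%, 82.8% and 67.4%, and without the first 100 kb it was 35.8% for WT H3K9me3.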
